A study of Mus musculus with 7 samples.

Results

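The genes of arginine and polyamine metabolism were followed in tumour cells carrying the surface antigens Cd34 and Epcam, isolated by flow cytometry from chemically induced mouse skin tumours. The set holds 10 genes (Arg1, Arg2, Ass1, Odc1, Oaz1, Srm, Sms, Smox, Sat1 and Amd1), of the 18193 genes that the arrays measure with a probe set assigned to a single gene. It was chosen by the measured values of 2 of its members: Arg1 and Smox were picked because their levels part carcinoma from papilloma arrays. Of the 10 genes, 8 were measured, on 12 probe sets. Each of the 3 probe sets of Sms is shared with a pseudogene, and Amd1 has no probe set named for it in the annotation used, so both are not analysed here. The measured genes are described on every probe set, and where a gene has several, the one with the highest average signal stands for it.

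Carcinoma, the malignant form of the tumour, gave 4 arrays, and papilloma, the benign form, gave 3. Every tumour arose under DMBA, which damages DNA, followed by TPA, which drives growth, so the papillomas that serve for comparison carry this treatment too. One array of each tumour type has GFP in its title, and the others have a number (1 to 3 in carcinoma, 1 and 2 in papilloma). The labels do not explain the tag. Their descriptions add the name Nr2f2, a nuclear receptor, before the tumour type in all 7 arrays and give no genotype, strain or age. They also do not say whether arrays came from separate animals, so errors and p-values cover no more than the scatter among these arrays, which may be technical.

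Arginine is cut by the arginases into ornithine and urea. Ornithine decarboxylase turns ornithine into putrescine, and the synthases that follow build spermidine and spermine with groups donated by decarboxylated S-adenosylmethionine. Antizyme holds the decarboxylase down, and acetylation and oxidation return the larger polyamines to the smaller ones. In mouse skin, induction of ornithine decarboxylase is a classical response to TPA.

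Values are log2 intensities after RMA normalization by the authors, so 1 unit is a doubling of the signal, and levels of different probe sets are not compared. Array medians lay between 5.38 and 5.51. The arrays with the GFP tag stood apart: relative to the untagged arrays, all 10 endothelial markers and 9 of 10 fibroblast markers were called higher, and so were 7 of 15 myeloid markers. Called lower were 6 of 10 keratinocyte markers. The mean level of the endothelial list was 10.83 to 11.01 in GFP arrays and 5.31 to 5.84 in untagged arrays, that of the fibroblast list 10.83 to 11.78 and 5.87 to 7.91, that of the myeloid list 7.13 to 7.30 and 5.25 to 6.23, and that of the keratinocyte list 10.76 to 10.92 and 11.86 to 12.37. Epcam, used for the sort, lay at 8.28 to 9.59 in GFP arrays and at 10.52 to 11.97 in untagged arrays, while Cd34 lay at 11.66 to 11.73 and at 8.76 to 10.80. Called higher were also 2 of 6 T cell markers and 1 of 5 melanocyte markers, and of 5 measured neutrophil markers 0 passed. For Gapdh, the signal at the 3' end exceeded that at the 5' end, a gap that grows as labelled RNA gets shorter, by 3.19 units in both GFP arrays and by -0.04 to 0.06 in the untagged arrays. Tumour type differences of the members are therefore given also for the 5 untagged arrays. In cell mixtures of this kind fewer cells of a type and less RNA per cell cannot be told apart. Below, carcinoma cells and papilloma cells name the labelled tumour type of arrays, GFP arrays included unless excepted, and not a checked cell type.

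Promoter windows from RefSeq (GRCm38.p6, 250 bases before to 50 after an annotated start) were at hand for 7 of the 10 genes, in 8 windows, but not for Arg1. Those of Smox (chr2:131491612-131491911, plus strand), Odc1 (chr12:17544623-17544922, plus strand) and Oaz1 (chr10:80826406-80826705, plus strand) are shown, because Smox is the selected gene with a window, Odc1 makes the first polyamine and Oaz1 varied least among the members. Capitals mark matches to GGGCGG (the GC box, on either strand, so also CCGCCC) and TATAAA (the TATA box, either strand).
Smox: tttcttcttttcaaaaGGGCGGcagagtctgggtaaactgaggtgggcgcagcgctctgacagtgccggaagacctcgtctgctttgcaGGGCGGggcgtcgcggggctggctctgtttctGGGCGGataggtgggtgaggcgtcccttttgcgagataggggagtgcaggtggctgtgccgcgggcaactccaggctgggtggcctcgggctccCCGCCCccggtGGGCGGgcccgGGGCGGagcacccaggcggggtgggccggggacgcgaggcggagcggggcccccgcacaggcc
Odc1: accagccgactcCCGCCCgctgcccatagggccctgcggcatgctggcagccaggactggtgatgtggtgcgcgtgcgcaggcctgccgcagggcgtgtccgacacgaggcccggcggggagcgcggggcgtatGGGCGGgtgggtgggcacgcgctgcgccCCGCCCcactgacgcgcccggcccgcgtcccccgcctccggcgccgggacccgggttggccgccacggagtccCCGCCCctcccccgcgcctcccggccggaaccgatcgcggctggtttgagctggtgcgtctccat
Oaz1: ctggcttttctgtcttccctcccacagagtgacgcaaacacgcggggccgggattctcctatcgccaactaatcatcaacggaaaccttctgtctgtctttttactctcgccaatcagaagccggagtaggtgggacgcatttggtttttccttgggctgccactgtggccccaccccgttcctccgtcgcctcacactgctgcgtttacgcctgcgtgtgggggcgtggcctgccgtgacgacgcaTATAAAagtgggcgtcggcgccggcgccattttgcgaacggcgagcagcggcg
The GC box matched in 6 of the 8 member windows and in 35.7% of all 32851 promoter windows. TATAAA matched in 1 of 8, that of Oaz1, and in 13.6% of all. The Oaz1 match began at position -3 relative to the annotated start and ran across it. Only the exact string was searched, so variants of the TATA box in other windows are not counted. CACGTG, the palindromic E-box bound by Myc proteins among others, matched in 2 of the 8 member windows (Ass1 and 1 of the windows of Sms) and in 7.2% of all, and is not in the 3 windows shown. GC boxes numbered 6 in the Smox window and 4 in the Odc1 window. These matches describe the windows only.

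Arg1, the cytosolic arginase best known from the urea cycle of the liver and also made by keratinocytes and by some macrophages, had on its single probe set (1419549_at) 7.49 in carcinoma GFP and 8.02, 8.38 and 7.98 in carcinoma 1, 2 and 3, against 5.98 in papilloma GFP and 7.40 and 6.93 in papilloma 1 and 2. Every carcinoma array lay above every papilloma array, but the lowest carcinoma array, carcinoma GFP, exceeded the highest papilloma array, papilloma 1, by only 0.10 units. Carcinoma cells averaged 7.97 ± 0.37 (SD, n = 4) and papilloma cells 6.77 ± 0.72 (SD, n = 3), which is 1.20 units apart (SE 0.37). Among untagged arrays the difference was 0.96 (SE 0.25), with a gap of 0.58 between the groups, and within the GFP pair it was 1.51. Arg1 was chosen for this contrast, so these values are a description and carry no test. Of the 15 myeloid markers 0 parted the tumour types. As only 0.578% of all probe sets parted with carcinoma higher and 0.830% with carcinoma lower, nothing is read from that count. The myeloid markers had list means of 5.25 to 7.30 in carcinoma and 5.50 to 7.13 in papilloma cells. By array the list mean was 7.30, 6.23, 6.0 and 5.25 in carcinoma GFP, 1, 2 and 3, against 7.13, 5.77 and 5.50 in papilloma GFP, 1 and 2. The part of myeloid cells in the Arg1 levels was not tested.

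Arg2, the mitochondrial arginase, did not follow its cytosolic relative. On its brighter probe set, 1418847_at, it had 4.60 in carcinoma GFP and 6.97, 6.47 and 5.20 in carcinoma 1, 2 and 3, against 4.64 in papilloma GFP and 7.10 and 6.01 in papilloma 1 and 2. Both tumour types spanned most of the range, and the GFP arrays were the lowest of each. The difference between tumour types was -0.11 (SE 0.76), and -0.34 (SE 0.61) among untagged arrays. It turned positive without carcinoma GFP (0.30), carcinoma 3 (0.10) or papilloma 1 (0.49), so no direction is given. The second probe set, 1438841_s_at, gave -0.03 (SE 0.86). Ass1, which joins citrulline and aspartate on the way to arginine, was measured on 1 dim probe set, 1459937_at, with 4.61 to 5.17 in carcinoma and 4.84 to 5.12 in papilloma cells and a difference of -0.01 (SE 0.19), or 0.18 (SE 0.19) among untagged arrays.

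**Figure D1:**
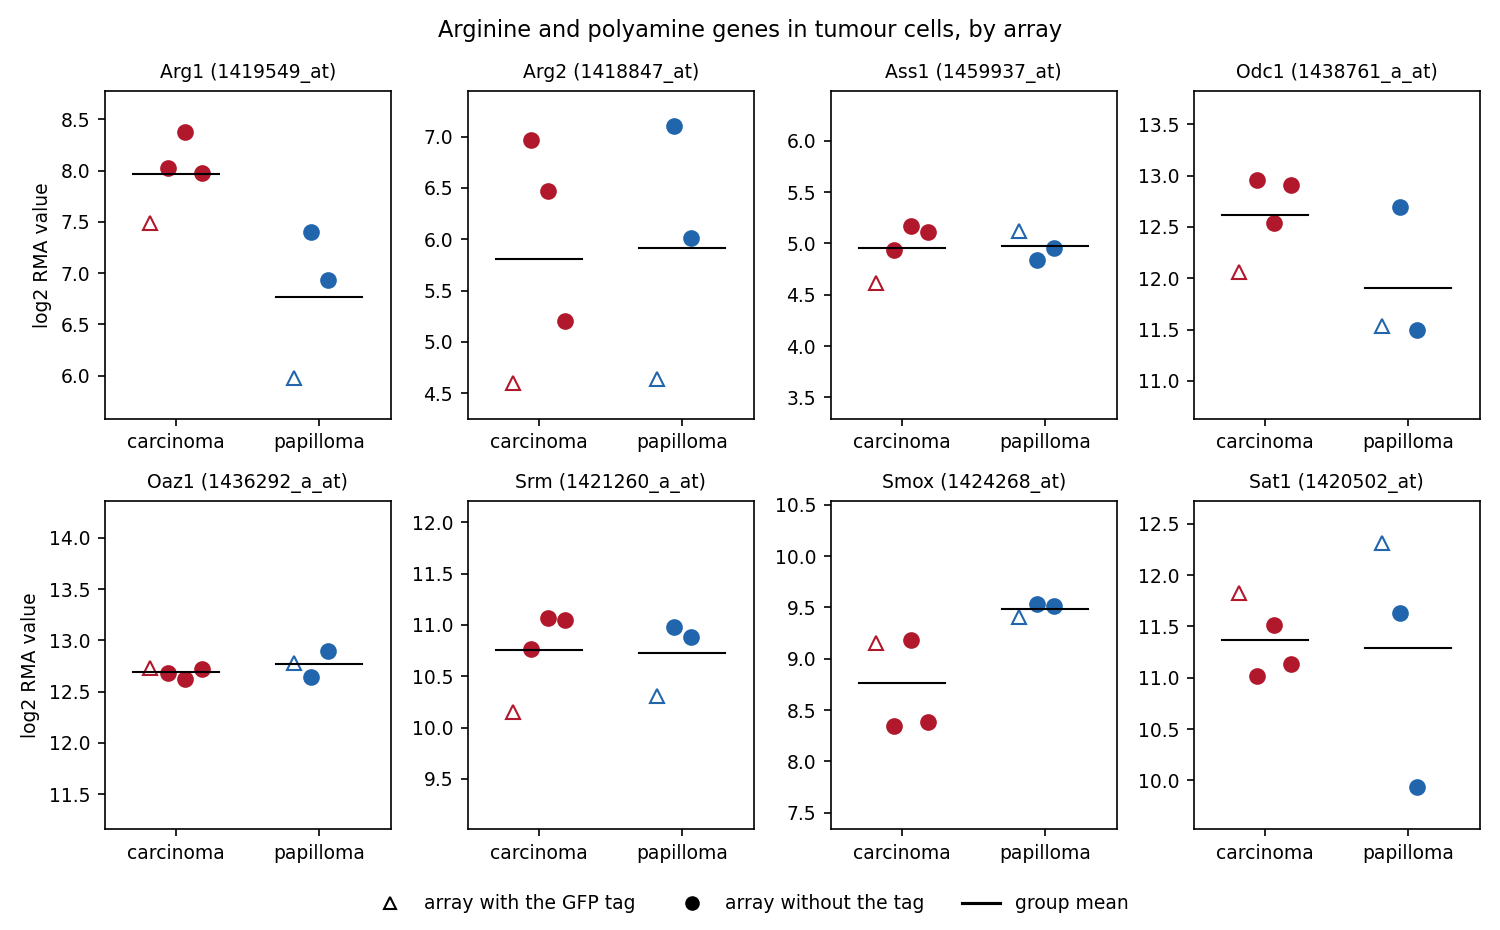
Log2 values of the 8 measured members on their brightest probe sets, carcinoma left and papilloma right, each panel spanning the same number of log2 units; triangles are arrays with the GFP tag, circles arrays without it, lines group means. Arg1 and Smox are the members whose groups do not overlap, which is how they were chosen, and Oaz1 stays between 12.62 and 12.90 in all 7 arrays.

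Odc1, the ornithine decarboxylase, was bright in all arrays. On 1438761_a_at it had 12.06 in carcinoma GFP and 12.96, 12.54 and 12.91 in carcinoma 1, 2 and 3, against 11.54 in papilloma GFP and 12.69 and 11.50 in papilloma 1 and 2. Papilloma 1 lay among the untagged carcinoma arrays, whereas papilloma 2 lay with papilloma GFP. Carcinoma cells averaged 12.62 ± 0.42 (SD, n = 4) and papilloma cells 11.91 ± 0.68 (SD, n = 3), 0.71 units apart (SE 0.37), and 0.71 apart (SE 0.39) among untagged arrays. Without papilloma 1 the difference was 1.10. The other probe sets had the same sign, with 0.49 (SE 0.25) on 1437711_x_at and 1.01 (SE 0.58) on 1427364_a_at. On 1427364_a_at papilloma 2 had 9.10, against 10.02 and 11.48 in the other papilloma arrays. Without papilloma 2 the difference on that probe set was 0.47, and without papilloma 1 it was 1.65. On 1437711_x_at the untagged groups did not overlap, with 12.24 to 12.79 in carcinoma and 11.88 to 12.04 in papilloma cells. On the other Odc1 probe sets the untagged groups overlapped. The share of all probe sets that part among the untagged arrays was not counted, so nothing is read from it.

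Oaz1, the antizyme that binds Odc1 and sends it to the proteasome, was the steadiest member. On 1436292_a_at it had 12.73, 12.68, 12.62 and 12.72 in carcinoma GFP, 1, 2 and 3, against 12.78, 12.64 and 12.90 in papilloma GFP, 1 and 2. Its range over the 7 arrays was 0.28 units, smaller than that of all but 3.5% of the 34945 probe sets, while the Odc1 probe set above ranged over 1.47 units, with 68.4% of probe sets ranging less. The difference of Oaz1 between tumour types was -0.09 (SE 0.14), and -0.10 (SE 0.19) among untagged arrays. Antizyme is controlled largely at translation, which arrays do not measure.

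Srm, the spermidine synthase, differed little between tumour types and followed the tag instead. On 1421260_a_at it had 10.15 in carcinoma GFP and 10.77, 11.07 and 11.05 in carcinoma 1, 2 and 3, against 10.31 in papilloma GFP and 10.98 and 10.88 in papilloma 1 and 2. The tumour types differed by 0.03 (SE 0.29), or by 0.03 (SE 0.20) among untagged arrays, and the 5 untagged arrays stayed within 0.30 units of each other. That range exceeded the range of only 9.7% of probe sets over the same arrays.

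Smox, the oxidase that turns spermine back into spermidine, ran opposite to Arg1. On its brighter probe set, 1424268_at, it had 9.15 in carcinoma GFP and 8.35, 9.18 and 8.38 in carcinoma 1, 2 and 3, against 9.41 in papilloma GFP and 9.53 and 9.51 in papilloma 1 and 2. The papilloma arrays kept within 0.12 units, whereas the carcinoma arrays formed a higher pair (GFP and 2) and a lower pair (1 and 3), and the gap between the tumour types was 0.23. Carcinoma cells averaged 8.77 ± 0.46 (SD, n = 4) and papilloma cells 9.48 ± 0.06 (SD, n = 3), with -0.72 units between them (SE 0.27). It was -0.88 (SE 0.31) among untagged arrays and -0.26 within the GFP pair. Smox too was chosen for this contrast, and no test is given. Its second, dimmer probe set, 1446509_at, had 4.18 in carcinoma GFP and 5.70 to 7.16 in the other carcinoma arrays, against 5.93 to 7.25 in papilloma cells. There the untagged tumour types differed by 0.05 (SE 0.60), so the parting of tumour types rests on 1 of 2 probe sets.

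Sat1, the acetyltransferase that starts polyamine breakdown and export, had on 1420502_at 11.83 in carcinoma GFP and 11.02, 11.51 and 11.13 in carcinoma 1, 2 and 3, against 12.31 in papilloma GFP and 11.63 and 9.94 in papilloma 1 and 2. The papilloma arrays held both the highest and the lowest value. The difference of 0.08 (SE 0.55), or 0.44 (SE 0.52) among untagged arrays, became -0.60 without papilloma 2 and 0.59 without papilloma GFP.

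**Figure D2:**
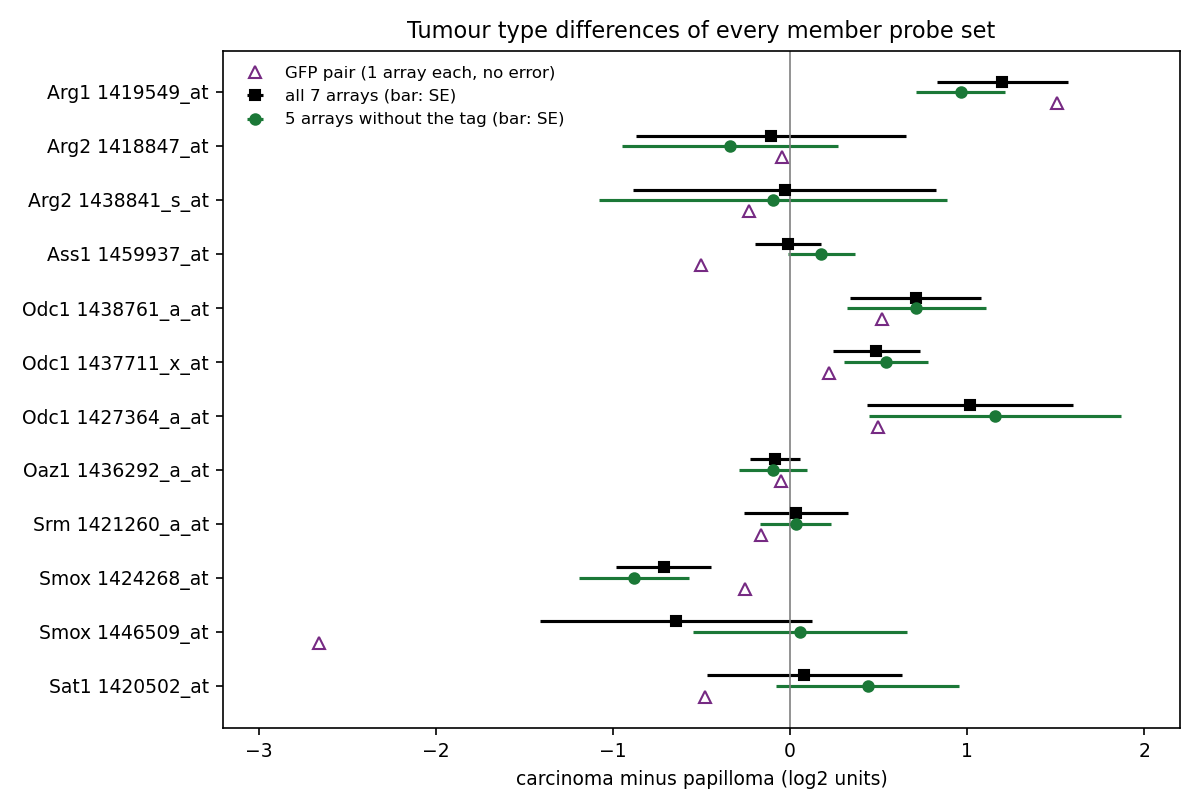
Carcinoma minus papilloma difference in log2 units for every member probe set: black squares all 7 arrays with SE, green circles the 5 untagged arrays with SE, open triangles the single GFP pair. Arg1 and the 3 Odc1 probe sets lie right of 0 in all 3 readings and Smox 1424268_at lies left of 0 in all 3, while Smox 1446509_at moves between 0.05 and -2.66.

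Counted over the 8 genes, 4 had a higher and 4 a lower mean in carcinoma cells, with a median difference of 0.01, against -0.00 over all probe sets. Groups did not overlap for 1 of the 12 probe sets with carcinoma higher (Arg1) and 1 with carcinoma lower (Smox), where 0.578% and 0.830% of the 34945 probe sets with a single gene behaved so. These are the probe sets the choice rested on. By the gap in log2 units, the nearest among the others were Oaz1 and Odc1 on 1437711_x_at, whose groups overlapped (gaps of -0.09 and -0.17). For Oaz1 the small gap goes with a range of only 0.28 units over all arrays. Over the whole table limma called 0 probe sets (0%) at a Benjamini-Hochberg adjusted p of 0.05, with 201 at an unadjusted p under that value. Adding the tag as a covariate gave Arg1 1.12 (SE 0.21), Smox -0.70 (SE 0.26) and Odc1 0.65 (SE 0.30).

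The members were picked on the tumour types and not on the tag, and GFP arrays were compared with untagged arrays by limma with tumour type as a covariate and p-values adjusted over all 34945 probe sets. For Arg1 and Smox the fit takes its error from the values by which they were picked, so their tag differences are descriptions and no p is given for them. Of the 12 member probe sets 2 lay under the threshold, Srm as a call and Arg1 as a description only, both lower. With Arg1 counted this is 16.7%, where 16.0% of all probe sets were called, 6.85% lower and 9.15% higher. Even with Arg1 counted, the share of member probe sets was thus near that of the table. Srm fell, to a mean of 10.23 ± 0.12 (SD, n = 2) in GFP arrays, against 10.95 ± 0.12 (SD, n = 5) in untagged arrays. The fitted difference was -0.73 (SE 0.17), with a limma adjusted p of 0.0318. The GFP and untagged arrays did not overlap for Srm. Nor did they for the uncalled Arg2 on 1418847_at, Odc1 on 1437711_x_at and Sat1. The share of all probe sets that part by the tag was not counted, so nothing is read from these partings. The Srm call was lost without carcinoma GFP, carcinoma 2, carcinoma 3, papilloma GFP or papilloma 1 (adjusted p between 0.0560 and 0.320 in these). It held without carcinoma 1 or papilloma 2. It was also lost with probe sets below the median level filtered out (0.0546). Over all alternatives the adjusted p of limma ranged from 0.00487 to 0.320.

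Arg1 had 7.49 and 5.98 in the GFP arrays of carcinoma and papilloma, against 7.98 to 8.38 and 6.93 to 7.40 in the untagged arrays of the same types. In each tumour type the GFP array was the lowest, and across the types the tag groups overlapped. The difference was -0.89 (SE 0.23). As a description only, Arg1 lay under the threshold in the reported fit. It did not when any single array was left out or without tumour type as a covariate. Nor did it with the filter on dim probe sets or with eBayes trend and robust. Arg2 had 4.60 and 4.64 in GFP arrays, against 5.20 to 7.10 in untagged arrays, and a difference of -1.76 (SE 0.52, limma adjusted p = 0.0676). The second probe set gave -1.27 (limma adjusted p = 0.372). Without carcinoma 3 the difference on the first was -2.02 with an adjusted p of 0.0166, and over all alternatives it ranged from 0.00474 to 0.337.

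The remaining members did not pass. Odc1 differed by -0.66, with a 95% interval of -1.45 to 0.14 (limma adjusted p = 0.251), and by -0.48 and -0.62 on its other probe sets. Without papilloma 2 it was called, at -0.91 (limma adjusted p = 0.0396, range over alternatives 0.0396 to 0.683), and so was 1427364_a_at, at -1.14 (limma adjusted p = 0.0481, range 0.0481 to 0.931). Sat1 had 11.83 and 12.31 in GFP arrays, above the 9.94 to 11.63 of untagged arrays, with a difference of 1.04 and an interval of -0.08 to 2.17 (limma adjusted p = 0.202). Smox differed by 0.22 (SE 0.29), Oaz1 by 0.03 (interval -0.35 to 0.41) and Ass1 by -0.14 (interval -0.63 to 0.35). Endothelial, fibroblast and myeloid markers and the Gapdh 3' to 5' difference moved with the same tag, and their part in the fall of Srm and the lower Arg1 was not tested.

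**Figure D3:**
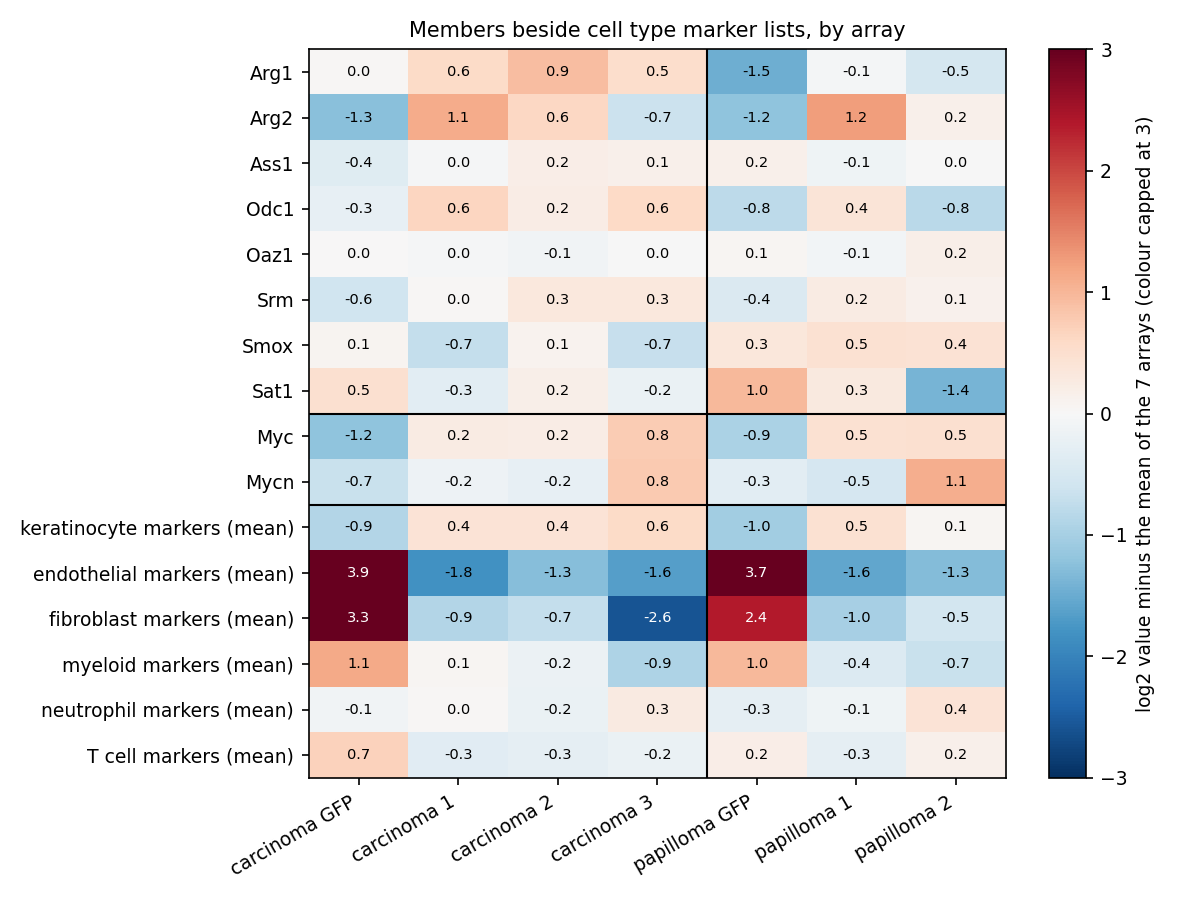
Each cell gives the log2 value of an array minus the mean of the 7 arrays, for the 8 measured members, Myc and Mycn, and the mean levels of 6 marker lists; carcinoma arrays are left of the vertical line and papilloma arrays right of it. Endothelial and fibroblast lists stand out in the 2 GFP arrays, where Arg2, Srm and Myc are lower than in the untagged arrays.

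Myc and Mycn, transcription factors of which Myc is known to drive Odc1, were measured beside it. Myc had 7.82 and 8.09 in GFP arrays, against 9.26 to 9.79 in untagged arrays, and fell by 1.52 on the log2 scale (SE 0.20, limma adjusted p = 0.00446). Without carcinoma GFP it missed the threshold (0.0918; range over alternatives 0.000498 to 0.0918). Between tumour types it differed by 0.00 (SE 0.56), with 9.26 to 9.79 in untagged carcinoma and 9.5 to 9.51 in untagged papilloma cells. Mycn gave -0.71 with the tag on its brightest probe set (limma adjusted p = 0.391) but rose by 1.75 on 1417155_at (limma adjusted p = 0.0083), so its direction is not settled.

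Of 41 other genes of the pathway, 36 were measured. The tag called 7 higher and 0 lower on their brightest probe sets, 29 did not pass, and the median difference was -0.11, against -0.07 over all probe sets. The share called, 19.4%, was near the 18.1% of the 18193 genes called on their brightest probe sets, of which 11.0% were called higher. Nothing particular to the pathway is read from it or from the smaller sublists. In the sublist of arginine uptake, urea cycle and nitric oxide, 3 of 14 genes rose (21.4%, against 11.0% of all genes). Nos3, the endothelial nitric oxide synthase, had 10.06 and 10.26 in GFP arrays, against 5.35 to 6.07 in untagged arrays, a difference of 4.36 (SE 0.23, limma adjusted p = 0.00012). Ddah1 and Ddah2 clear methylated arginines that inhibit nitric oxide synthases. Ddah1 rose by 3.22 (SE 0.34) and Ddah2 by 1.65 (SE 0.24), with limma adjusted p = 0.00168 and 0.00567. Without carcinoma GFP Ddah2 missed the threshold (0.111; range 0.000537 to 0.111). The endothelial list moved with the same arrays, and its part in these 3 rises was not tested.

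Among polyamine regulators, catabolic enzymes and transporters, 3 of 7 measured genes rose and 0 fell (42.9% called higher, against 11.0% of all genes). Oaz2, a second antizyme, had 10.99 and 10.85 in GFP arrays, against 9.08 to 9.65 in untagged arrays (difference 1.59, SE 0.20, limma adjusted p = 0.0031). Its other probe sets were not higher, with -0.16 on 1426764_at and -0.77 on 1442541_at, both uncalled. Without carcinoma GFP its adjusted p was 0.0617 (range 0.000414 to 0.0617). Azin1, the antizyme inhibitor that frees Odc1, rose by 1.5 (SE 0.33, limma adjusted p = 0.0263) on its brightest probe set. The other Azin1 probe sets gave 1.14 on 1422702_at and -0.31 on 1430984_at, both uncalled. Sat2, a relative of Sat1, rose by 1.20 (SE 0.22, limma adjusted p = 0.0147). In the sublist of creatine, agmatine, ornithine and proline 1 of 9 genes rose (11.1%, against 11.0% of all genes): Gamt, which completes creatine, by 0.78 (SE 0.18, limma adjusted p = 0.0291). Leaving out either GFP array, or carcinoma 2 for Azin1, ended the calls of Azin1 and Sat2, with adjusted p ranging over all alternatives from 0.00354 to 0.216 for Azin1 and from 0.00208 to 0.155 for Sat2. The Gamt call was lost without either GFP array or any 1 of carcinoma 1, 2 and 3 (0.0523 to 0.358 there) and with eBayes trend and robust (0.0790; range over alternatives 0.00571 to 0.358). Of the 6 measured genes of methionine salvage and hypusine 0 passed in either direction.

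Several genes of these lists gave unlike tag differences on different probe sets, examples chosen after their values were seen. Mtap, the first enzyme of methionine salvage after spermidine and spermine synthesis, differed by -1.22 on its brightest probe set, 1451346_at, by -3.03 on 1451345_at (limma adjusted p = 0.0236) and by 0.15 on 1424425_a_at. Slc7a1, an arginine importer, gave -0.29 and, on 1454992_at, -1.94 (limma adjusted p = 0.0189). Eif5a, the protein that receives hypusine from spermidine, gave -0.23 and, on 1437859_x_at, -1.56 (limma adjusted p = 0.00506). The Gapdh 3' to 5' difference of the tagged arrays stands beside these values, and its part in them was not tested. The 3 Odc1 probe sets, by comparison, lay between -0.66 and -0.48.

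**Figure D4:**
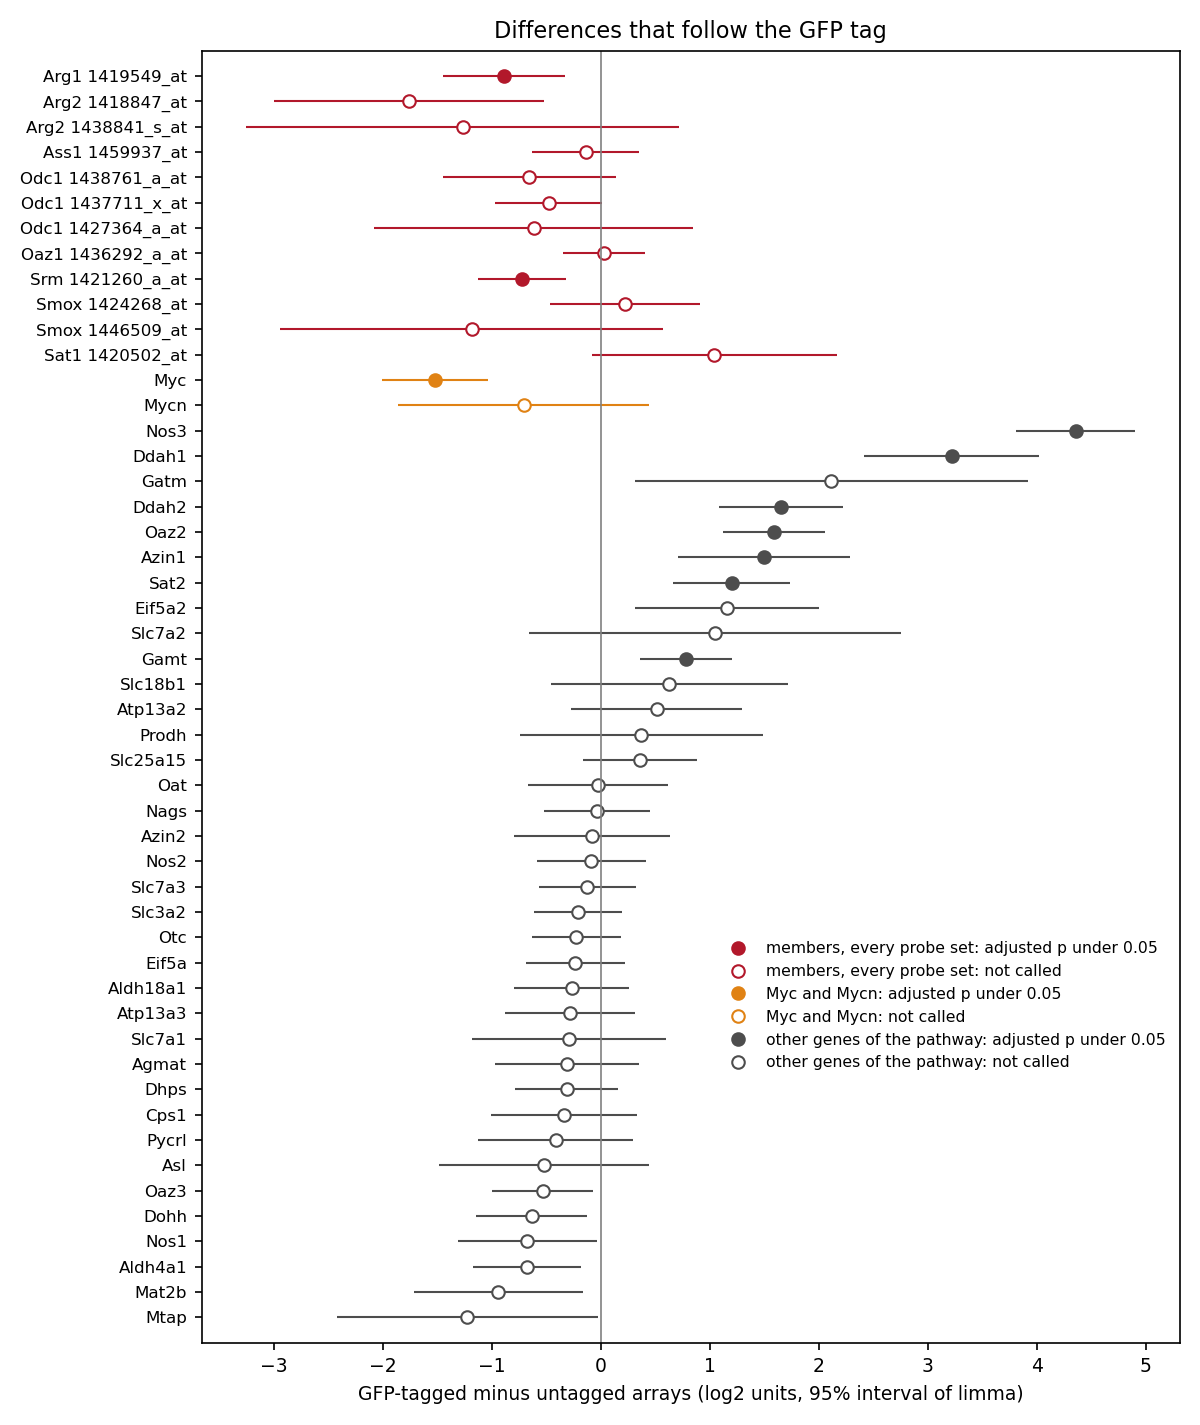
GFP-tagged minus untagged arrays in log2 units with the 95% interval of limma, for every member probe set (top), Myc and Mycn, and the brightest probe set of 36 other genes of the pathway (bottom); filled symbols have an adjusted p under 0.05, which for Arg1 and Smox is a description. Srm and Arg1 are the filled members, both left of 0, while the filled genes of the wider pathway, from Gamt at 0.78 to Nos3 at 4.36, lie right of 0.

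Between tumour types the same 36 genes had a median difference of -0.08, with 14 higher and 22 lower in carcinoma cells, and 0 were called. Highest were Atp13a3, a polyamine transporter, at 0.62 (SE 0.24), Gatm, which starts creatine synthesis, at 0.61 (SE 0.99), Mat2b, a regulator of S-adenosylmethionine synthesis, at 0.38 and Mtap at 0.29. Atp13a3 had 9.81, 9.88, 10.16 and 9.63 in carcinoma GFP, 1, 2 and 3, against 8.92, 9.72 and 9.12 in papilloma GFP, 1 and 2, so that only papilloma 1 lay among the carcinoma arrays. Lowest were Prodh, the proline dehydrogenase, at -0.82 (SE 0.43), Nos3 at -0.58 (SE 1.52), Slc18b1, a vesicular polyamine transporter, at -0.40 and Atp13a2, a lysosomal polyamine exporter, at -0.39. For Prodh the groups did not overlap, with 5.11 to 6.93 in carcinoma and 7.0 to 7.29 in papilloma cells. The gap was 0.07 units. Of the 36 genes 1 parted, where 0.578% of all probe sets parted with carcinoma higher and 0.830% with carcinoma lower. Prodh was named for its large tumour type difference, so nothing is read from its parting. The Nos3 difference moved with the tag, and among untagged arrays it was -0.22. Leaving out 1 array turned the sign of Nos3 (0.87 without papilloma GFP) and brought Gatm, Mat2b, Mtap and Slc18b1 to -0.03, -0.09, -0.06 and 0.00, while Atp13a3, Atp13a2 and Prodh kept theirs. Prodh came to -0.42 without carcinoma 3, and Atp13a2 to -0.19 without carcinoma 2 or papilloma GFP, -0.25 without papilloma 2 and -0.71 without papilloma 1.

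The genes whose profile over the 7 arrays was most like that of Arg1, each centred on its own mean, were Stk17b, Tmc7, Plekha5 and Mpp6, with mean absolute differences of 0.24, 0.25, 0.27 and 0.27 log2 units. Of these Stk17b, a protein kinase, also parted the tumour types, with 9.12 to 9.66 in carcinoma and 8.30 to 9.01 in papilloma cells. For Smox they were Elobl, Cryl1, Enoph1 and Smim13, with 0.15, 0.15, 0.16 and 0.17 units. Enoph1, an enzyme of methionine salvage, had 9.24 to 9.93 in carcinoma and 10.01 to 10.17 in papilloma cells. They are the closest genes over only 7 arrays that share the tag effect, and are given as a description. Arg1 and Smox were chosen for parting the tumour types, so a parting in genes picked for likeness to them follows from that choice.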

How the data were processed

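Tumour cells were profiled on 7 Affymetrix mouse PM strip arrays. The values deposited by the authors are log2 intensities, normalized with RMA per the labels' protocols; RMA and affy are named in the submitters' processing notes, with no version; which arrays were normalized together is not stated there. The log2 scale was read from the values, which run from 2.72 to 14.51. Gene names came from the platform annotation of 2016 (34945 non-control probe sets with 1 symbol, 932 with several, 9211 unlisted), checked against RefSeq GRCm38.p6.

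Groups follow the labelled tumour type and the GFP tag of the titles. All 34945 probe sets were fitted with limma 3.58.1 in R 4.3.3 (lmFit, eBayes), with no filter, and p-values were adjusted by Benjamini-Hochberg over all of them (threshold 0.05). Tag contrasts had tumour type as a covariate, and tumour type contrasts had none. Each SE and interval is from limma, which draws the variance of a probe set towards a value common to all probe sets. Each SD is that of the named arrays alone, so SE and SD do not come from the same scatter. The procedure was also run on simulated data with independent noise around the mean of each probe set. Those data held no cell mixture and no tag difference beyond the changes added, so they cannot show how it performs with such features. Figures used matplotlib 3.10.9.

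The members, the lists and the tests were chosen with earlier results of these data known. Named were all members, called genes of the wider pathway (up to 10), the 4 with the largest tumour type difference in each direction, Myc, Mycn and the 4 closest profiles. Deviations of same-labelled arrays from their group means had correlations of 0.413, 0.173 and 0.820 for 1, 2 and GFP, across probe sets. The GFP arrays enter these means, and among untagged arrays 1 and 2 gave 0.108 and -0.334. For 1 and 2 no shared deviation is read from them. The pairing comes from the titles alone, and the replicate block is an alternative. Other alternatives were the filter on dim probe sets, array centring, the variance model, array weights, covariates and leaving out each array; those for the wider pathway's genes were added after seeing the data. The number of arrays limits the precision.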

Additional observations from a re-analysis of the deposited data

Results flagged for a closer look

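Single arrays stood far from the rest of their group in 5 of 56 groups examined by Dixon's test. The test flags about 1 in 20 groups of independent values by chance, a rate that does not hold here. Nos3, Ddah1 and Prodh were named for their tag or tumour type differences, and the groups share arrays and genes. The count is therefore a description. In papilloma 2, Odc1 had 11.50 on 1438761_a_at, against 12.54 to 12.96 in the other untagged arrays, and 9.10 on 1427364_a_at, against 10.99 to 11.69. In carcinoma GFP, Nos3 had 10.06, against 5.35 to 6.07 in the other carcinoma arrays, and Ddah1 had 10.19, against 6.08 to 6.75. In carcinoma 3, Prodh had 5.11, against 6.51 to 7.06 in the other untagged arrays.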

How the results depend on the processing

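Under the alternatives tried for the 12 member probe sets, 307 of 340 values kept their direction and side of the threshold or, for tumour type differences, moved by less than 1 SD between replicates. The 307 thus include tumour type differences that turned sign by less than that SD. These were found for Arg2 on both probe sets, Ass1, Srm, Sat1 and Smox on 1446509_at. The Arg1 tumour type difference ranged from 0.81 without papilloma GFP to 1.51 without papilloma 1, and was 1.19 with the replicate block. That of Smox ranged from -0.85 to -0.58 without single arrays, was -0.59 with the replicate block and moved to -0.26 in the GFP pair alone, a construction with 1 array each. With the replicate block, without both GFP arrays and under every other alternative listed, limma called 0 probe sets between tumour types, so the block changed no call. The tag called 5591 probe sets in the reported fit, 3601 with 1 probe set a gene (fewer probe sets tested), 10889 with array weights, and from 1300 without carcinoma GFP to 6092 without papilloma 2; a lone GFP array is there assumed to vary like the others. Tag differences that turned sign were all uncalled: Ass1 (-0.459 to 0.22 without single arrays), Smox (-0.11 to 0.517, and -2.46 to 0.25 on 1446509_at), where leaving out carcinoma GFP turned each, Smox at -0.48 as the mean of its probe sets, and Oaz1 at -0.0479 with arrays centred on their medians and between -0.0178 and 0.0886 without single arrays. Except for the fewer arrays or probe sets, the cause was not tested.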
